A study of Rattus norvegicus with 2 samples.

Results

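The genes described here encode the cytochrome P450 enzymes and the hydrolases that turn arachidonic acid into vasoactive and natriuretic lipids in the kidney. They were chosen by symbol, and a gene was measured where a probe set of the array carried its symbol alone, the brightest probe set being taken if there were several. Of 10 genes on the list, 9 had such a probe set and each of them had only 1, among 22093 genes with a probe set of their own in all. They fall into 3 Cyp4a omega-hydroxylases (Cyp4a1, Cyp4a2 and Cyp4a8), 4 epoxygenases (Cyp2c23, Cyp2c11, Cyp2j3 and Cyp2j4) and 2 epoxide hydrolases (Ephx1 and Ephx2). Cyp4a3, the remaining gene, shared its only probe set with Cyp4b1 and was therefore not measured as a member.

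Arachidonic acid is released from membranes by phospholipases, and P450 enzymes oxidize the free acid in either of 2 main ways. Omega-hydroxylases of the Cyp4a and Cyp4f subfamilies make 20-HETE, which constricts renal arterioles and also inhibits sodium reabsorption in the proximal tubule and the thick ascending limb. Epoxygenases of the Cyp2c and Cyp2j subfamilies make epoxyeicosatrienoic acids (EETs), which dilate vessels and favor sodium excretion. Soluble epoxide hydrolase converts EETs to less active diols. In the kidney the proximal tubule is the main site of Cyp4a and Cyp2c23 expression. The pathway has long been studied in Dahl salt-sensitive rats because a low formation of 20-HETE in the renal outer medulla has been linked to their sodium retention.

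The kidneys came from male Dahl salt-sensitive (Dahl/SS) rats, obtained at 3 weeks of age and then fed AIN-93G chow with 8% NaCl for 4 weeks. This high-salt group is called DSH. The second group, DSH+2.5%SF, was fed salt in the same way and, beginning 1 week later, also received 25 mg of the iron-based phosphate binder sucroferric oxyhydroxide (SF) per g of chow. Both pools thus carried the high-salt diet, which is known from the study's methods and not from the sample labels (control and 2.5%SF), and no normal-salt kidney was on the arrays analysed here. Whole-kidney RNA of 3 rats was pooled per group and hybridized to 1 Clariom D array. Since each group had 1 array, neither a replicate error nor a p-value could be had, and an effect of SF cannot be told apart from chance differences among the pooled rats.

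The values are intensities on a linear scale, and each gene was described by its log2 ratio (DSH+2.5%SF relative to DSH). A gene was called higher with a Z-score of at least 2.0 and a ratio of at least 1.5, and lower with a Z-score of at most −2.0 and a ratio of at most 0.66, where the Z-score is the log2 ratio minus its mean (0.03) over its SD (0.34) across all 68842 probe sets. In effect a 1.63-fold higher or a 1.57-fold lower level was needed. By these criteria 2.45% of all genes were called in either direction, 1.09% higher and 1.36% lower. As a yardstick for single genes, the SD of the log2 ratio among the 1000 probe sets nearest in brightness is given, which holds measurement scatter together with true differences between the pools. It ran from 0.06 to 0.52 over the 9 genes. Intensities of different probe sets depend on their probes and are not compared with each other.

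None of the 9 genes was called in either direction. Their log2 ratios ran from −0.28 for Ephx1 to 0.34 for Cyp4a1, so that the largest difference was 1.27-fold, and their Z-scores lay between −0.93 and 0.92. Each of the 9 log2 ratios was smaller in size than the SD among probe sets of like brightness. Cyp4a2 stood at the highest value of the table in both pools. Neither its ratio of 1 nor its lack of a call is therefore a measurement of equal expression. In DSH+2.5%SF 5 genes were higher, 2 were lower and 2 had the same intensity in both pools. Over all genes 43.4% were higher, 47.5% lower and 9.13% the same. The median log2 ratio of the 9 was 0.03, beside 0 over all genes and −0.06 over the 8031 genes at or above the 75th percentile of brightness, a level that all 9 reached. Of those 8031 genes 36.2% were higher and 58.5% lower. At a background of 2.45%, a count of 0 among 9 genes is not a result about these genes.

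**Figure D1:**
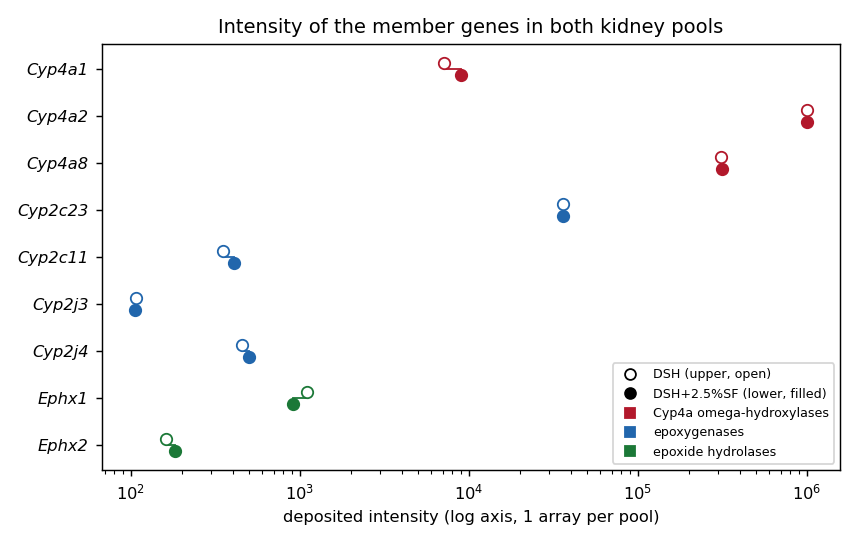
Deposited intensity (log axis) of each measured gene in DSH (open, upper) and DSH+2.5%SF (filled, lower), 1 array per pool, colored by enzyme group. The points of a gene stand close together, the widest gap being that of Cyp4a1, at 7093 and 8978; levels of different genes are not comparable.

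Among the omega-hydroxylases, Cyp4a1 had the largest difference of all members. Cyp4a1 encodes an arachidonic acid omega-hydroxylase that is well known as a target of PPAR-alpha in rat liver and kidney. Its intensity was 7093 in DSH and 8978 in DSH+2.5%SF, a log2 ratio of 0.34 (Z-score 0.92), with an SD of 0.51 among probe sets of like brightness. The SF pool was the higher one, by less than that SD.

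Cyp4a2, an omega-hydroxylase that is abundant in the rat kidney, was listed at an intensity of 999966 in both pools. This is the highest value in the table, and 280 probe sets stood at it in both pools. A gene at this ceiling can differ between the pools without its value moving, and the ratio of 1 is therefore not a measurement of equal expression. Among the 1000 probe sets nearest to it in brightness, 84.4% had the same intensity in both pools.

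Cyp4a8, another renal member of the subfamily, was at 310080 in DSH and at 316019 in DSH+2.5%SF, a log2 ratio of 0.03. Its direction turned to −0.02 when the arrays were centred on their medians. The probe set that Cyp4a3 shares with Cyp4b1 was at 2674 in both pools, and it cannot be assigned to either gene.

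Cyp4a2 and Cyp4a3 are close copies. In the GRCr8 assembly both lie on chromosome 5 in a row that runs from Cyp4a8 over Cyp4a2, Cyp4a2l1 and Cyp4a3 to Cyp4a1 and Cyp4b1, with pseudogenes in between. Their promoters are shown because they make the likeness visible. The 250 bases before each start site were taken from RefSeq (GRCr8, both on the minus strand), Cyp4a2 at chr5:134170909-134171158 and Cyp4a3 at chr5:134352237-134352486. They are printed 5′ to 3′, and the capitals mark the motif AGGTCA, the half-site that nuclear receptors such as PPAR-alpha with its partner RXR bind as a repeat.
Cyp4a2: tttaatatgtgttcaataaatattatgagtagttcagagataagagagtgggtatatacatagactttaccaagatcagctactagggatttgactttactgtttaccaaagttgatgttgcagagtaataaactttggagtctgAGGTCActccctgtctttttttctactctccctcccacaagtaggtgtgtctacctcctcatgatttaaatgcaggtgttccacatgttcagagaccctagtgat
Cyp4a3: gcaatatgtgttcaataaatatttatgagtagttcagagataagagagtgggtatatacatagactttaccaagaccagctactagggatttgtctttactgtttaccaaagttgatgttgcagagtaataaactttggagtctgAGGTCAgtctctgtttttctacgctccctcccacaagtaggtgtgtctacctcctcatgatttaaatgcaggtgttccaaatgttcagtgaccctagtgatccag
Of 245 bases that align between these windows, 236 were identical (96.3%), whereas Cyp4a2 and Cyp4a8 matched at 143 of 238 (60.1%). Whether the probes of Cyp4a2 also read Cyp4a3 was not tested.

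The half-site started 105 bases before the start site in both copies. It was found on either strand in the windows of 4 of the 8 listed genes that the RefSeq table holds, Cyp4a2, Cyp4a3, Cyp2c11 and 1 of the 2 Ephx1 windows, and in 14.1% of all 33469 windows. The full repeat AGGTCANAGGTCA, in which the half-sites follow each other with 1 base between them, was in none of these 8 genes' windows and in 0.0508% of all. A match of letters is no evidence of binding, and its absence from this window says nothing about the factor.

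The epoxygenases differed as little. Cyp2c23, the main arachidonic acid epoxygenase of the rat kidney, had the same intensity in both pools, 35848. Unlike Cyp4a2 it was far from the ceiling, and among the 1000 probe sets nearest in brightness 8.1% had identical values. Of all probe sets 5138 (7.46%) did, and no source used here says what makes a value equal to its last digit in both pools. The SD at this brightness was 0.52, and the log2 ratio of Cyp2c23 became 0.10 after quantile normalization.

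Cyp2c11, best known as a male-specific P450 of rat liver that also forms EETs, was at 353 in DSH and at 410 with SF. Its log2 ratio was 0.22 against an SD of 0.41. Of 8 hepatocyte markers, only the fibrinogen gene Fgb reached the 75th percentile of brightness, at 145 and 137, while Alb, the albumin gene, was at 15.3 and 14.9. These levels are not comparable with that of Cyp2c11, and the source of the Cyp2c11 signal was not tested.

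Cyp2j4 was at 454 and 501, a log2 ratio of 0.14. Cyp2j3, an epoxygenase first described in rat heart, was at 108 and 106, a log2 ratio of −0.03. Cyp2c11 and Cyp2j4 were thus the higher 2 of the 4 epoxygenases in the SF pool and Cyp2j3 was lower, each by less than the SD at its brightness. Cyp2j3 and Cyp2j4 neighbor each other on chromosome 5, yet their upstream windows matched at only 106 of 201 aligned bases (52.7%).

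The hydrolases went in opposite directions. Ephx1 encodes microsomal epoxide hydrolase, which acts on many foreign epoxides and more slowly on EETs. It was the most reduced member, at 1104 in DSH and 906 with SF, a 1.22-fold difference (Z-score −0.93). Ephx2, the gene of soluble epoxide hydrolase, was at 161 and 184, a log2 ratio of 0.19. The SD at their brightness was 0.44 and 0.39, larger than either difference.

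**Figure D2:**
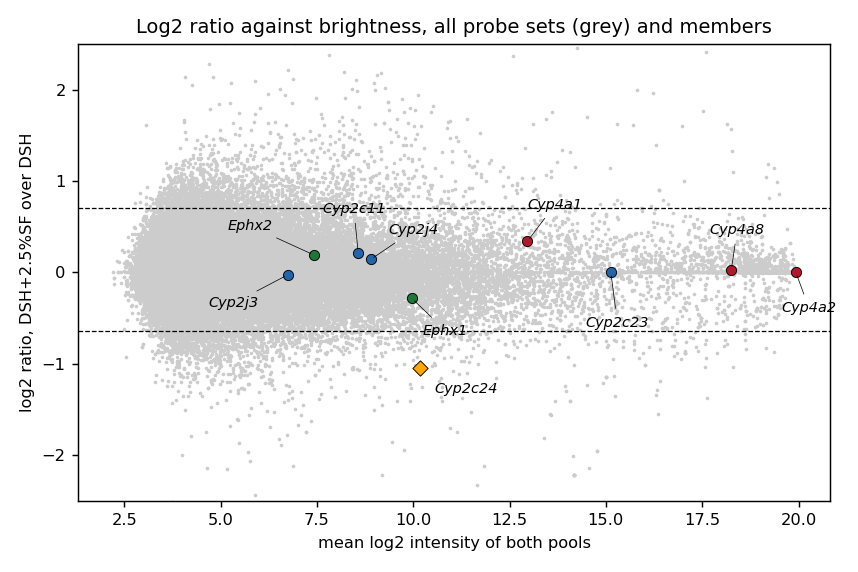
Log2 ratio of DSH+2.5%SF over DSH against mean log2 intensity for all probe sets (grey, 33 of them outside the plotted range) with the 9 members in the colors of their groups and Cyp2c24 as a diamond. Dashed lines mark Z-scores of 2.0 and −2.0; all 9 members lie between them and Cyp2c24, at −1.05, lies below.

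The Cyp4a genes, grouped by subfamily as makers of 20-HETE, were then set against makers or breakers of EETs. Which Cyp4a enzymes make 20-HETE in these kidneys was not measured. The median log2 ratio was 0.03 over the 3 Cyp4a genes, which is the value of Cyp4a8. It was 0.07 over the 6 epoxygenases and hydrolases, a difference of −0.04. The Cyp4a genes spanned 0 to 0.34 and the others −0.28 to 0.22, so the ranges overlapped. Without Cyp4a2, which is at the ceiling, the difference was 0.11 in the other direction, and without both genes of identical value it was 0.04. The sign of this contrast hence depended on a gene whose ratio could not be measured. The epoxygenases alone had a median of 0.07 and the hydrolases of −0.05. Genes of 1 group are not replicates, and no test was made.

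**Figure D3:**
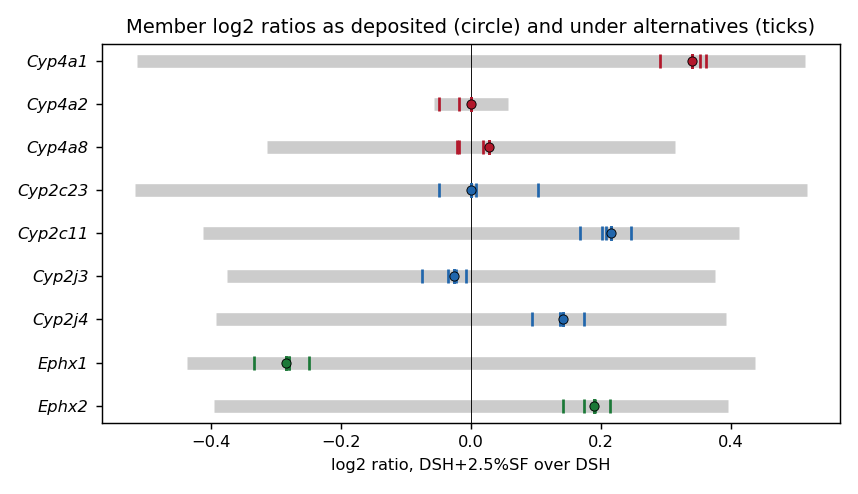
Log2 ratio of each member as deposited (circle) and under the 9 planned processing alternatives (ticks), with a grey bar of 1 SD to either side of 0 among the 1000 probe sets nearest in brightness. Every circle lies inside its bar; Cyp4a2, at the ceiling, has the narrowest one.

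The other genes of the pathway were described by 10 lists, of whose genes 89 were measured. Of these, 3 (3.37%) were lower in DSH+2.5%SF and none was higher, and their median log2 ratio was −0.10. The 3 were Cyp2c24, Angptl4 and Vnn1. As with the members, these shares stand beside 2.45% of all genes. Counts above or below 0 in these and the marker lists stand beside 43.4% above and 47.5% below over all genes. Among genes at or above the 75th percentile of brightness the shares are 36.2% and 58.5%.

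Cyp2c24, a relative of Cyp2c11 that lies beside it on chromosome 1, was the only P450 gene of these lists that was called. Its intensity was 1674 in DSH and 811 with SF, which is 2.06-fold lower, with a Z-score of −3.18, and of −2.47 among probe sets of like brightness. The other 8 measured Cyp2c and Cyp2j genes were not called, and Cyp2c24 was the 1 gene of this list that reached the 75th percentile of brightness. The list had a median of −0.28, with 7 of 9 genes below 0. Genes of the Cyp2c cluster are similar in sequence, and whether their probe sets read each other's transcripts was not tested.

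Other Cyp4 enzymes and Cyp2u1, only some of which are known to hydroxylate arachidonic acid, gave no call among 12 genes. Of these, 9 were above 0 and 3 below, and the median was 0.12. Cyp2u1 was at 102 in DSH and at 75.6 with SF (log2 ratio −0.43), Cyp4v3 was at 1052 and 881 (−0.26), and Cyp4f6 was at 107 and 121 (0.18). Only 4 of the 12 reached the 75th percentile of brightness.

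P450 enzymes need electrons from NADPH, which Por, cytochrome P450 reductase, and in part cytochrome b5 hand on. None of 6 such genes was called, and their median was −0.20. Por was at 256 in DSH and at 220 with SF, a log2 ratio of −0.22. Cyb5b, a cytochrome b5 of the outer mitochondrial membrane, had a log2 ratio of 0.24, and Cyb5r4 one of −0.27. Among 4 further genes of epoxide hydrolases and related peptidases none was called, and Lta4h, which hydrolyzes leukotriene A4, had a log2 ratio of −0.09.

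Genes for the supply of the substrate gave no call either, and arachidonic acid itself was not measured. At a background of 2.45% this is not a result about supply. None of 11 genes that release arachidonic acid was called, and their median was 0. Pla2g4a, the cytosolic phospholipase A2 that is selective for arachidonic acid, was at 252 in DSH and at 201 with SF (log2 ratio −0.32). Pla2g12a, a secreted phospholipase A2, was at 123 and 176 (0.52), and Mgll, which cleaves monoacylglycerols, was at 1290 and 1031 (−0.32). Of 12 genes that make, activate or bind polyunsaturated fatty acids, 9 were below 0 and none was called, with a median of −0.13. Fads1, the delta-5 desaturase that makes arachidonic acid from its precursor, came closest to the limit, at 1171 and 751, with a Z-score of −1.98. It passed when the ratio criterion was used alone. Acsl5, an acyl-CoA synthetase, had a log2 ratio of −0.51 and Acsl3 one of 0.22.

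The competing cyclooxygenase and lipoxygenase routes had 8 of 11 genes below 0, a median of −0.11 and no call, and none of these genes reached the 75th percentile of brightness. Of 5 measured genes for the receptor and ion channels through which 20-HETE and EETs are known to act, none was called. Kcnmb1, the beta subunit of the large-conductance potassium channel, was at 68.9 in DSH and at 104 with SF (log2 ratio 0.60, Z-score 1.69), and it too passed on the ratio alone. Trpv4, a calcium channel that EETs open in endothelium, was at 197 and 140 (−0.49), and Trpc6 had a log2 ratio of −0.08.

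Cyp4a genes are induced through PPAR-alpha, so its partners and targets were set beside them. None of 8 nuclear receptor and cofactor genes was called, their median was 0.06, and 6 of them were above 0. Ppard was at 85.0 in DSH and at 101 with SF (log2 ratio 0.25), Rxra had a log2 ratio of 0.09 and Ppargc1a one of 0.08. Of 11 measured PPAR-alpha targets other than Cyp4a, 8 were below 0, the median was −0.19, and 2 were lower by the criteria. Of all genes at or above the 75th percentile of brightness 58.5% were below 0. Angptl4, an inhibitor of lipoprotein lipase, was at 136 in DSH and at 72.0 with SF, 1.89-fold lower (Z-score −2.80). Vnn1, which encodes the pantetheinase vanin-1, was at 133 and 71.4, 1.86-fold lower (Z-score −2.73). Whether the Cyp4a genes and these targets differ in their response was not tested.

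**Figure D4:**
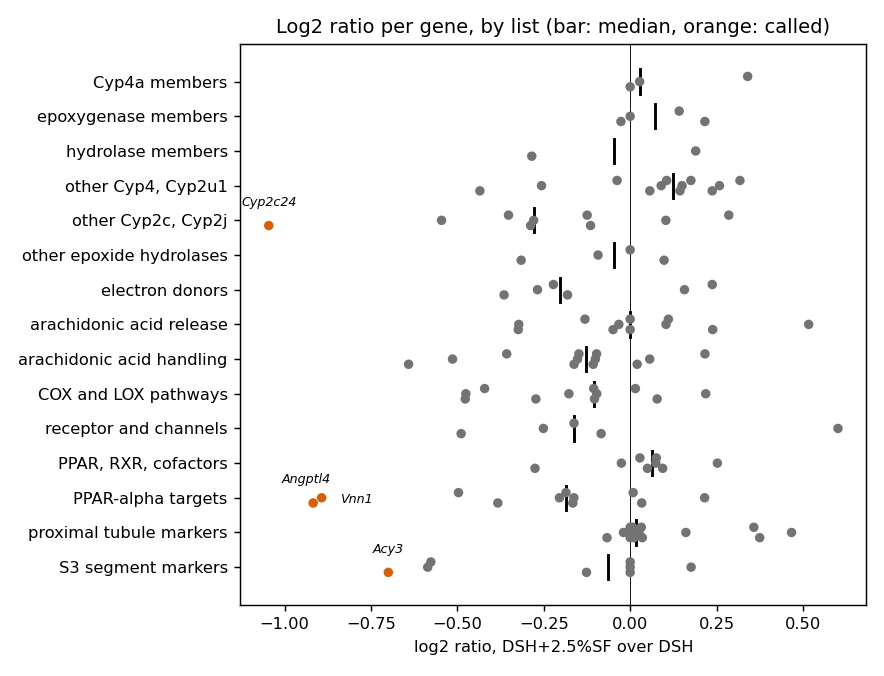
Log2 ratio of DSH+2.5%SF over DSH for each measured gene (points) of the member and pathway lists and of the proximal tubule and S3 markers, with the median as a black bar and called genes in orange. Cyp2c24, Angptl4, Vnn1 and Acy3 are the called genes of these lists, all lower, and none of the 9 members is among them.

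Fewer cells of a type and less RNA per cell cannot be told apart in whole-kidney RNA, so markers of the nephron segments were read beside the members. None of 14 proximal tubule markers was called, and their median was 0.02, with log2 ratios of −0.07 to 0.47. Their summed intensity was 697218 in DSH and 699061 in DSH+2.5%SF, and all 14 reached the 75th percentile of brightness. The brightest few probe sets make up most of this sum, and 3 of the 14 had the same intensity in both pools. The sum is therefore no measure of proximal tubule content. Slc17a3, Slc22a6 and Slc22a8, which encode organic anion and phosphate transporters, had the largest log2 ratios of this list, at 0.47, 0.37 and 0.36. Among 8 genes listed as markers of the late (S3) segment, whose enrichment there was not tested, Acy3, an aminoacylase gene, was 1.62-fold lower (28905 and 17797). Ggt1 and Slc6a18 had log2 ratios of −0.59 and −0.58 without a call. The list had a median of −0.06, with 1 gene above 0, 4 below and 3 at 0. Of the genes at 0, Slc3a1 was at the ceiling of 999966 in both pools, as Cyp4a2 was. Measured against probe sets of like brightness the Z-score of Acy3 was −1.24, which does not pass.

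Markers of the other segments and cells that whole kidney holds moved more than the members did in places. Calb1, the calbindin gene of the distal convoluted tubule, was higher (10832 in DSH and 27005 in DSH+2.5%SF). The 8 loop and distal markers had a median of 0.07, with 4 above 0, 2 below and 2 at 0. Among them Slc12a3 had a log2 ratio of −0.07. In the collecting duct the water channel gene Aqp3 was lower (660 and 330) and Foxi1, a regulator of intercalated cells, was higher (171 and 292). Of the 8 collecting duct markers 3 were above 0 and 5 below, with a median of −0.37. All 8 endothelial and smooth muscle markers were below 0, with a median of −0.15, and Tagln was lower (846 and 492). The 8 leukocyte markers had a median of −0.29, with 6 below 0, 1 above and 1 at 0. Cd79a was lower (119 and 75.3). The macrophage and myeloid markers Csf1r, Adgre1, Itgam and Cd14 had log2 ratios of −0.45, −0.51, −0.31 and −0.26 without a call. Cd68, at 271 in DSH and 294 with SF, was the 1 above 0, and Ptprc, at 497 in both, the 1 at 0. Against probe sets of like brightness the Z-scores of Tagln and Cd79a were −1.90 and −1.73, which do not pass. Foxi1 fell just short of the Z-score limit with dim probe sets left out, and neither it nor Aqp3 passed the stricter ratio of 2 or 0.5. The 4 measured glomerular markers were all above 0 without a call (median 0.14), among them Podxl, a podocyte surface protein gene, at 0.60 and Plce1 at 0.09. None of the hepatocyte markers was called (Fgb had a log2 ratio of −0.08). Their summed intensity, of which Fgb was the largest part, was 274 in DSH and 257 in DSH+2.5%SF. The part of these shifts in the values of the 9 genes was not tested.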

How the data were processed

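The deposited intensities of both arrays were computed by the authors with RMA (the submitters' processing notes list Affymetrix Expression Console 1.4.1) from pooled RNA of 3 rats per group. RMA corrects the background, normalizes the arrays and summarizes probes, and the values are on a linear scale from 3.89 to 999966. The sources name RMA only and do not say what sets the top value. Whether a further transformation of the scale was applied is not known, so folds and ratio limits hold for the deposited scale only. No source used here gives the genome build of the array design. Gene symbols came from the platform annotation, in which 23446 probe sets have 1 symbol, 505 several and 44891 none used here. Log2 ratios, Z-scores and calls were computed over all 68842 probe sets with no filter and no pseudocount. The members and lists were chosen with earlier results of these data known. Besides the members, the text names the called genes of each list or, where none was called, up to 3 with the largest ratio among those at or above the 75th percentile of brightness. Alb, Slc12a3, Slc3a1, Ggt1, Slc6a18, Cd68, Ptprc, Csf1r, Adgre1, Itgam and Cd14 were added after their values were seen. The calling code was run on simulated ratios whose scatter was taken from these same arrays and whose added changes were larger than any member's difference. That run checks the code only and holds no differences between rats. Having 1 array in each group limits the precision. Promoter windows came from RefSeq (GRCr8), and 8 of the 10 listed genes matched. Windows were aligned globally with free end gaps. Python 3.11.15 was used with biopython 1.88, statsmodels 0.14.6, pandas 2.3.3, numpy 2.4.6 and matplotlib 3.10.9.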

Additional observations from a re-analysis of the deposited data

How the results depend on the processing

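No paired analysis was possible because each group had 1 array, and no array could be left out. Of the alternatives, 3 changed the calling rule (a Z-score taken over 1000 neighbors in brightness, no Z-score at all, and a stricter ratio of 2 or 0.5), 3 the scaling (centring on medians, quantile normalization, removal of a loess trend), and 3 the input (brighter probe sets only, 16 added before log2, and averaged probe sets). Under all 9 of them 0 of the 9 members were called. The stricter ratio, the centring and the averaging could not have added a call, since each member has 1 probe set and centring leaves the Z-score unchanged. The contrast of Cyp4a with epoxygenases and hydrolases stayed between −0.12 and −0.04 under these 9. Only quantile normalization, the loess trend and the pseudocount could change it, to −0.12, −0.07 and −0.04. Under the remaining alternatives it was fixed in advance at its main value, so they are no check of it. Leaving out Cyp4a2, an alternative chosen after the data were seen, moved the contrast to 0.11, and Cyp4a2 at the ceiling is the limit here. Cyp4a2, Cyp4a8 and Cyp2c23 changed sign or left 0 with the scaling, within −0.05 and 0.10, and the other 6 members kept their sign. The 3 calls in the pathway lists became 5 (1 higher and 4 lower) with the ratio alone, by Kcnmb1 and Fads1, 4 with the pseudocount (all lower) and 1 (Cyp2c24) with the stricter ratio. Counting Cyp4a2 and Cyp4a3 as 1 gene was not run, since Cyp4a3 has no probe set of its own.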
